A study of Homo sapiens with 24 samples.

Results

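The G1 cyclins, their kinases, the inhibitors of those kinases, and the proteins downstream of them were examined as targets of chromatin-bound S100A8 and S100A9 in breast epithelial cells. The 10 genes, of 20098 protein-coding genes on chromosomes 1 to 22 and X, are CCND1, CCND2, CCND3, CCNE1, CDK4, CDK6, CDKN2A, CDKN2B, RB1, and E2F1. They were chosen by name and not by a rule on measured values, but with earlier results of these data known. A peak was called when its q value was at most 1e-07, and it was given to a gene when its summit lay in the gene body or within 50 kb of it. A called peak was placed at a promoter when its summit fell no more than 1500 bp before or 250 bp past an annotated transcription start site (TSS). Such windows also hold neighboring genes, so each site below is described by where its summit lies.

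MCF-10A is a nontransformed human breast epithelial line, and the derivative used here expresses ER-Src, a v-Src kinase that becomes active when its estrogen receptor part binds 4-hydroxytamoxifen. All cells carried ER-Src, and in addition expressed either S100A8 or S100A9 with a Flag tag, so the measured protein is the tagged copy and not the cells' own. Cells received 1 μM 4-hydroxytamoxifen (TAM) or its vehicle ethanol (EtOH) for 24 h, and a Flag antibody was used for chromatin immunoprecipitation (ChIP). Peak lists of 11 libraries were used, which the labels give as biological replicates: 2 of S100A8 in EtOH, 3 of S100A8 in TAM, 3 of S100A9 in EtOH, and 3 of S100A9 in TAM.

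Called peaks numbered from 1853 to 4609 in the 5 EtOH libraries and from 21518 to 40735 in the 6 TAM libraries. Read numbers are not part of the lists, so sequencing depth is unknown here, and a deeper library cannot be told apart from wider binding. The p-values below measure only the spread between these libraries. This difference between the treatments lies beneath every comparison of peak numbers below, and the difference per 10000 called peaks of a library is given beside each gene's own.

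Cells commit to division in late G1. D-type cyclins (CCND1, CCND2, CCND3) bind and activate the kinases CDK4 and CDK6, cyclin E (CCNE1) does the same for CDK2, and these kinases phosphorylate the retinoblastoma protein RB1, which then releases E2F transcription factors such as E2F1 to switch on genes of DNA replication. CDKN2A and CDKN2B encode the inhibitors p16 and p15 of CDK4 and CDK6, CDKN2A also encodes the p53 regulator ARF, and MCF-10A cells are known to have lost this locus on chromosome arm 9p.

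The DNA at the sites on which the promoter results turn is given first, in hg19 (GRCh37) coordinates. Each run is the longest stretch within 75 bp of a summit that holds no untranslated region, which at CCND1 starts beside its summit in the first exon, 5′ to 3′ on the strand of the gene in whose window it lies. Capitals mark exact matches on either strand, overlaps included, to an ETS (CGGAAG), SP1 (CCCCGCCC), CREB (TGACGTCA), AP-1 (TGACTCA or TGAGTCA), E2F (TTTCGCGC, TTTGGCGC or TTTCCCGC), CTCF (CCA, AG, and GGC with 2 bases of any kind between them), or E-box (CACGTG) motif.
CCND1 coding part of the first exon, chr11:69456082-69456151, + strand: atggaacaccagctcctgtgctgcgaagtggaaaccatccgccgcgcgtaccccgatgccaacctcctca
CCND1 intron, chr11:69458207-69458357, + strand: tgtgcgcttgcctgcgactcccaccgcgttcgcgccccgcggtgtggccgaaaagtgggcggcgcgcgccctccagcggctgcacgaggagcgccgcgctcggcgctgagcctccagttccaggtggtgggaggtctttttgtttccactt
CCND3 promoter, chr6:41909631-41909781, - strand: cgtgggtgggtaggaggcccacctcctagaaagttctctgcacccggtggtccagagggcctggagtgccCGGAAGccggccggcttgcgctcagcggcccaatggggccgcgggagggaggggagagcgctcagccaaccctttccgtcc
CDK4 promoter, chr12:58146265-58146415, - strand: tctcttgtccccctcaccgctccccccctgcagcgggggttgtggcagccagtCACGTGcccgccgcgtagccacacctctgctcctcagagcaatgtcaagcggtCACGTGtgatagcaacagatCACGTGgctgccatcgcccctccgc
CDK6 promoter, chr7:92463232-92463344, - strand: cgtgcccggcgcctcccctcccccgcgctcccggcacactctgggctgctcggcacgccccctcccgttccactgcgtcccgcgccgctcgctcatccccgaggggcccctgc
RB1 promoter, chr13:48877644-48877794, + strand: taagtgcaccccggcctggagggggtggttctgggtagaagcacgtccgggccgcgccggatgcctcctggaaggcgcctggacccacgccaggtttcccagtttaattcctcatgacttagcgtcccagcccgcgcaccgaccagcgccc
E2F1 promoter, chr20:32274386-32274536, - strand: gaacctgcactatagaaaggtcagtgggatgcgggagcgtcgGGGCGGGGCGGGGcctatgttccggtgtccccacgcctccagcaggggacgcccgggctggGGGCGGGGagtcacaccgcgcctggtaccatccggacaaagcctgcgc
Below, the first 2 runs belong to the sites called in the most libraries in the CDK4 and CDK6 windows, at the promoters of neighboring genes, and the last to a site downstream of CCNE1.
TSFM promoter, chr12:58176413-58176543, - strand: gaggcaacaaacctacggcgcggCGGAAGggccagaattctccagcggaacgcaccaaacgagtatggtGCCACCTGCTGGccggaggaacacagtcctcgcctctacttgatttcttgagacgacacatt
FAM133B promoter, chr7:92219713-92219863, - strand: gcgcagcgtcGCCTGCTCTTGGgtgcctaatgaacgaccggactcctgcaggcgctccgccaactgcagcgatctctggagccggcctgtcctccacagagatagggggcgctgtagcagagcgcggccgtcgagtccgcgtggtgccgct
downstream of CCNE1, chr19:30349007-30349157, + strand: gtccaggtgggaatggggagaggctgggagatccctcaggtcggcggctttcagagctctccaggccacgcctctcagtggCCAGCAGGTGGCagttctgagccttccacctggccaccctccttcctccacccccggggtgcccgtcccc
The CDK4 promoter run holds 3 E-boxes, the E2F1 run holds 3 SP1 matches, and the CCND3 run holds an ETS match. The TSFM run holds an ETS and a CTCF match, and the FAM133B run and the run downstream of CCNE1 hold a CTCF match each. The runs of CCND1, CDK6, and RB1 hold none of the searched motifs.

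S100A8 and S100A9 were called at 8 of the 10 genes, against 93.4% of all protein-coding genes, and in more places after TAM. Over the 10 windows together, EtOH libraries had 11 and 9 called peaks for S100A8 and 5, 4, and 11 for S100A9. TAM libraries had 33, 26, and 24 for S100A8 and 34, 35, and 49 for S100A9. Every TAM library was above every EtOH library, and the mean difference over the proteins was 25.2 peaks, against a pooled SD within conditions of 5.56. Per 10000 called peaks of the library the order turned, from 22.5 ± 4.17 (SD, n = 2) to 11.1 ± 0.241 (SD, n = 3) for S100A8 and from 19.8 ± 5.24 (SD, n = 3) to 13.3 ± 1.28 (SD, n = 3) for S100A9. The share of a library's peaks at these genes was thus lower in TAM, except that the lowest EtOH library, at 13.9, lay under the highest TAM library, at 14.6.

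**Figure D1:**
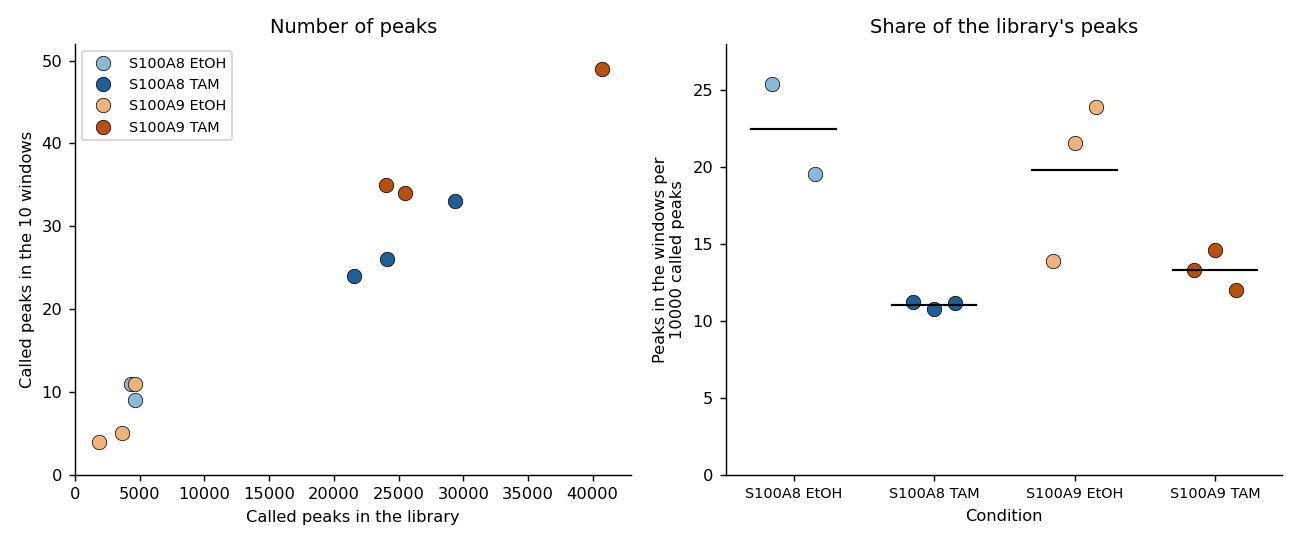
Left, called peaks in the 10 windows (y axis) against all called peaks of the library (x axis), 1 point per library. Right, the same peaks per 10000 called peaks of the library (y axis) by condition (x axis), with a line at the mean. TAM libraries lie at 24 to 49 peaks and EtOH libraries at 4 to 11, while the right panel runs from 10.8 to 14.6 in TAM and from 13.9 to 25.4 in EtOH.

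An exact permutation test on the number of called peaks in the window, with treatment permuted within each protein and adjusted by the Benjamini-Hochberg method over 18764 genes, called 6 of the 8 genes with a peak higher in TAM and none lower. The background was high, since 65.3% of all genes tested were called higher in TAM by the same rule, so the 6 of 8 are near it. The median difference was 2.67 peaks at the 8 genes and 2.33 over all genes tested. With 200 arrangements the smallest p is 0.01, so at least 3753 genes (20.0%) need a p under 0.05 before any adjusted p falls under 0.05. Per 10000 called peaks, 2 of the 8 genes were higher and 6 lower in TAM, while over all genes tested 10436 were higher and 8328 lower. The median difference on this scale was −0.400 at the 8 genes and 0.0775 over all genes tested. None of the 8 was called, and over all genes 3979 had an unadjusted permutation p under 0.05 and none an adjusted one. Leaving out S100A8 EtOH replicate 1 or replicate 2 leaves 1 library in that condition, with fewer arrangements and a higher smallest p. No gene at all was called then, so a call lost there says nothing about that gene. Leaving out any other library also raises the smallest p, to between 0.0167 and 0.02. Between 44.85% and 51.04% of all genes tested were then called, against 65.3% with all libraries.

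**Figure D2:**
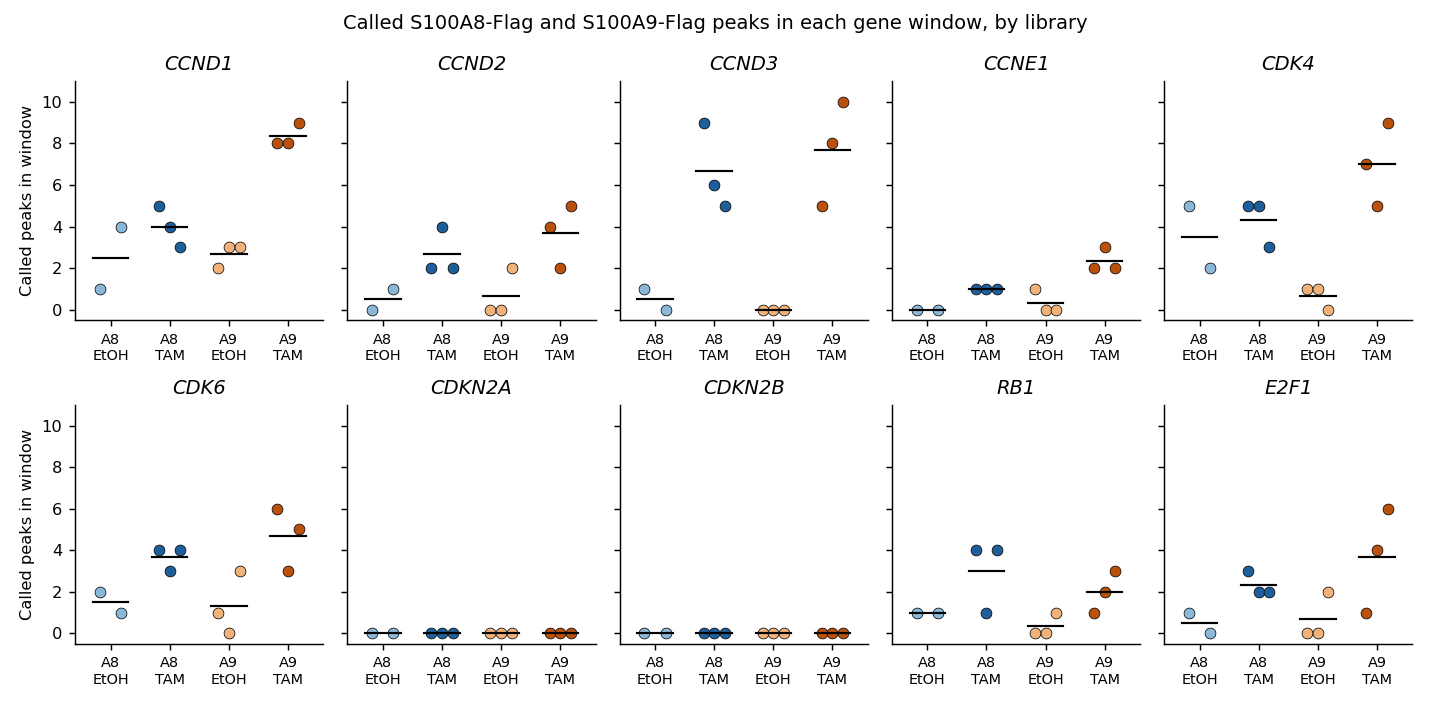
Number of called peaks in the window of each gene (y axis, peaks) by protein and treatment (x axis; A8, S100A8; A9, S100A9), 1 point per library, with a line at the mean. CCND3 goes from 0 or 1 in EtOH to between 5 and 10 in TAM, and CDKN2A and CDKN2B stay at 0 in all 11 libraries.

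CCND3, the cyclin D3 gene (chr6:41902672-42018095, − strand), showed the clearest separation. Its window held 1 and 0 called peaks in S100A8 EtOH, 9, 6, and 5 in S100A8 TAM, 0 in each of the 3 S100A9 EtOH libraries, and 5, 8, and 10 in S100A9 TAM. The 6 TAM libraries all lay above the 5 EtOH libraries, which held for no other of the 10 genes and for 38.8% of all genes tested. It also held for 10 of the 20 further G1/S genes described below. The difference was 6.92 peaks (adjusted p = 0.0226, exact permutation test). It was 2.03 higher per 10000 called peaks and not called (adjusted p = 0.086, permutation test), it was −0.0833 with the same number of peaks taken from each library, and the call was also lost with the gene body alone (3.83 peaks, adjusted p = 0.0823, permutation test). In each of these settings no gene at all was called, so the lost call is not particular to CCND3. Without S100A8 EtOH replicate 1 or replicate 2, where no gene at all was called, the difference was 7.17 or 6.67 peaks. The call held when any 1 of the other 9 libraries was left out.

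CCND3 has TSSs at both ends of its record, and called peaks lay at each. The site at −160 bp of the inner TSS, whose DNA is shown above, was called in 5 TAM libraries with fold enrichments of 11.4 and 10.9 in S100A8 TAM replicates 1 and 2 and of 11.3, 7.34, and 7.75 in the S100A9 TAM replicates. No EtOH library had even a weaker deposited peak there. A second site, −253 bp from the outermost TSS and also in the promoter of TAF8, a subunit gene of the general factor TFIID, was called in 4 TAM libraries and in S100A8 EtOH replicate 1, where its fold enrichment was 10.4. In all, 15 merged sites lay in this window, 3 at the gene's own promoters, 3 at promoters of the neighbors USP49, MED20, and BYSL, 7 in its exons and introns, and 2 in bodies of other genes. Of these sites 14 were called only in TAM libraries, and 5 of the 14 had a weaker deposited peak in EtOH.

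CCND1, the cyclin D1 gene (chr11:69455924-69469242, + strand), was called in every library. Its window held 1 and 4 called peaks in S100A8 EtOH, 5, 4, and 3 in S100A8 TAM, 2, 3, and 3 in S100A9 EtOH, and 8, 8, and 9 in S100A9 TAM. The 3 S100A9 TAM libraries stood apart from the other 8, whose ranges overlapped across conditions. The difference of 3.58 peaks passed narrowly (adjusted p = 0.046, exact permutation test). It stayed between 2.83 and 4.33 peaks when any 1 of the 11 libraries was left out. Without an S100A8 EtOH library no gene at all was called. Without any other library CCND1 was not called (adjusted p from 0.0543 to 0.09, permutation test), where between 44.85% and 51.04% of all genes tested were called. Per 10000 called peaks the difference turned to −5.22 (adjusted p = 0.086, permutation test).

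Sites at CCND1 were dense around the start of the gene. The site at +102 bp was called in S100A8 EtOH replicate 2 with a fold enrichment of 7.31, in S100A8 TAM replicate 1 with 7.66, in S100A9 EtOH replicates 1 and 2 with 9.22 and 11.8, and in S100A9 TAM replicates 1 and 3 with 8.16 and 11.4. It was therefore called in 3 EtOH and 3 TAM libraries, and CCND1 was the only gene of the 10 whose promoter was called in at least 2 replicates of an EtOH condition. A site in an intron at +2308 bp was called in 2 EtOH and 5 TAM libraries and reached the 94.8th percentile of fold enrichment in S100A9 TAM replicate 2, and a site at −2100 bp was called in 3 and 3. Together, 13 merged sites lay in the window, of which 7 were called only in TAM, 1 only in EtOH, and 5 in both. The most often called of them was at the promoter of LTO1, the neighboring ribosome biogenesis gene, in 3 EtOH and 6 TAM libraries.

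CCND2, the cyclin D2 gene (chr12:4378937-4414519, + strand), had 0 and 1 called peaks in S100A8 EtOH, 2, 4, and 2 in S100A8 TAM, 0, 0, and 2 in S100A9 EtOH, and 4, 2, and 5 in S100A9 TAM. TAM libraries were higher apart from a tie at 2 peaks, and the difference was 2.58 (adjusted p = 0.0365, exact permutation test). The difference stayed between 2.25 and 3 peaks when any 1 library was left out. Without an S100A8 EtOH library no gene at all was called. Of the other libraries, the call held without S100A9 EtOH replicate 3 or S100A9 TAM replicate 2. It was lost without the rest, with adjusted p up to 0.0721 in the permutation test and between 44.85% and 51.04% of all genes called. Per 10000 called peaks the difference was −0.118. Its promoter site at −49 bp was called in 5 TAM libraries and in no EtOH library, with fold enrichments of 8.07 and 12.8 for S100A8 and 11.2, 8.04, and 6.82 for S100A9. Both EtOH libraries with a deposited peak there had weaker ones, of 3.71 in S100A8 EtOH replicate 2 and 4.2 in S100A9 EtOH replicate 1. The window also held 2 sites at promoters of TIGAR, a metabolic enzyme gene, of which the more often called was found in 1 EtOH and 5 TAM libraries.

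CCNE1, the cyclin E1 gene (chr19:30302898-30315219, + strand), had few peaks and none at its promoter. Its window held 0 and 0 called peaks in S100A8 EtOH, 1 in each S100A8 TAM library, 1, 0, and 0 in S100A9 EtOH, and 2, 3, and 2 in S100A9 TAM. The difference was 1.5 peaks (adjusted p = 0.0226, exact permutation test), with a tie at 1 peak between the treatments. It stayed at 1.5 peaks without S100A8 EtOH replicate 1 or replicate 2, where no gene at all was called. The call held when any other library was left out. The call was lost with 10 kb around the gene body (0.5 peaks, adjusted p = 0.32, permutation test), with q of at most 1e-10 (adjusted p = 0.149, permutation test), and per 10000 called peaks (0.161 higher). All 5 merged sites were intergenic, the nearest 14215 bp downstream of a CCNE1 TSS. Its promoter is rich in CpG, with 229 in the densest promoter window, more than in 99.6% of genes. Peaks under the threshold were deposited at the promoter in 5 TAM libraries.

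Among the kinases, CDK4 (chr12:58141510-58149796, − strand) lies in a gene-dense stretch. Its window held 5 and 2 called peaks in S100A8 EtOH, 5, 5, and 3 in S100A8 TAM, 1, 1, and 0 in S100A9 EtOH, and 7, 5, and 9 in S100A9 TAM. The S100A8 groups overlapped and the S100A9 groups did not. The difference of 3.58 peaks was not called (adjusted p = 0.0572, exact permutation test) and was −3.30 per 10000 called peaks. The difference in peak number was 0.833 for S100A8 and 6.33 for S100A9, and the 5.5 between these had an unadjusted p of 0.03 and an adjusted p of 1 when protein was permuted within treatment (exact permutation test).

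The CDK4 promoter site at −110 bp, with the 3 E-boxes, was called in S100A8 EtOH replicate 1 with a fold enrichment of 10.5, in S100A8 TAM replicates 1 and 2 with 8.46 and 10.4, and in the S100A9 TAM replicates with 8.04, 7.13, and 8.38. Weaker peaks were deposited in 3 more EtOH libraries. Only 2 of the 13 merged sites of this window were at CDK4 promoters, and 7 were at promoters of neighbors. The strongest was the TSFM promoter, of a mitochondrial translation factor gene, which was called in 4 EtOH and 6 TAM libraries, with a fold enrichment of 24.1 in S100A9 TAM replicate 2, the 99.9th percentile of that library. The shared promoter of METTL1 and EEF1AKMT3, both methyltransferase genes, was called in 2 EtOH and 5 TAM libraries.

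CDK6 (chr7:92234235-92465887, − strand) is the longer of the kinase genes, and its window held 2 and 1 called peaks in S100A8 EtOH, 4, 3, and 4 in S100A8 TAM, 1, 0, and 3 in S100A9 EtOH, and 6, 3, and 5 in S100A9 TAM. The groups met at 3 peaks. The difference was 2.75 (adjusted p = 0.0365, exact permutation test), and between 2.42 and 3.17 when any 1 library was left out. Without an S100A8 EtOH library no gene at all was called. Of the other libraries, the call held without S100A9 EtOH replicate 3 or S100A9 TAM replicate 2. It was lost without the rest, with adjusted p up to 0.0721 in the permutation test and between 44.85% and 51.04% of all genes called. Per 10000 called peaks the difference was −1.70. Sites near its start lay at the promoter and in an exon. The promoter site at −38 bp was called in 1 EtOH and 4 TAM libraries, with fold enrichments of 7.04 in S100A8 EtOH replicate 1, 9.76 in S100A8 TAM replicate 3, and 8.46, 9.70, and 5.31 in the S100A9 TAM replicates. The exon site at +792 bp was called in 2 EtOH and 5 TAM libraries. At the far end of the window, the promoter of FAM133B was called in 3 EtOH and 6 TAM libraries, which was more than any site of CDK6 itself.

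**Figure D3:**
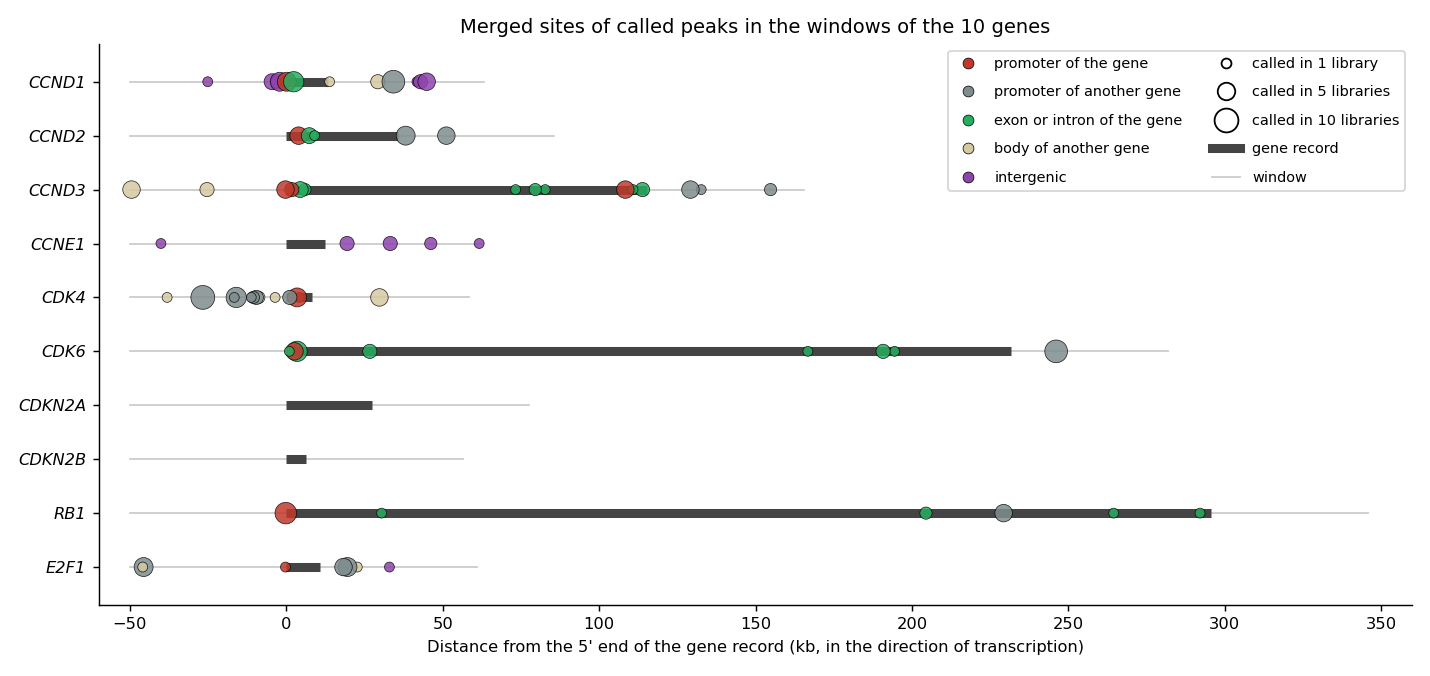
The 72 merged sites of called peaks by distance of the summit from the 5′ end of the gene record in the direction of transcription (x axis, kb), 1 row per gene (y axis). Circle size is the number of libraries that called the site and color its position. The largest circles in the CCND1, CDK4, and CDK6 rows are gray, at promoters of other genes, and the CDKN2A and CDKN2B rows are empty.

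The inhibitor genes CDKN2A (chr9:21967751-21995300, − strand) and CDKN2B (chr9:22002902-22009304, − strand) had no called peak in any of the 11 libraries, and no deposited peak either. Of all protein-coding genes, 309 (1.54%) had no deposited peak in their window. The stretch without any summit ran from chr9:21854832 to chr9:22203657, 348.8 kb, and it holds CDKN2A, CDKN2B, the noncoding CDKN2B-AS1, and the 3′ part of MTAP, a gene of methionine salvage that lies next to CDKN2A. With called peaks alone it measured 551.4 kb.

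Peaks lay on both sides of it. Over 500 kb to its left, 42 peaks were deposited, 1 of them in EtOH and 41 in TAM libraries, and over 500 kb to its right there were 14, of which 1 was in EtOH. In the body of MTAP, S100A8 TAM libraries had 3, 3, and 2 deposited peaks and S100A9 TAM libraries 2, 4, and 5, and of the EtOH libraries only S100A8 replicate 2 had any, with 1. The summit that borders the stretch on the left was deposited in all 3 S100A9 TAM libraries, with fold enrichments from 6.36 to 8.52, and called in 2 of them. The border on the right rests on a single weak peak of S100A9 TAM replicate 3, with a fold enrichment of 3.18, and without that library the stretch measured 402.2 kb.

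**Figure D4:**
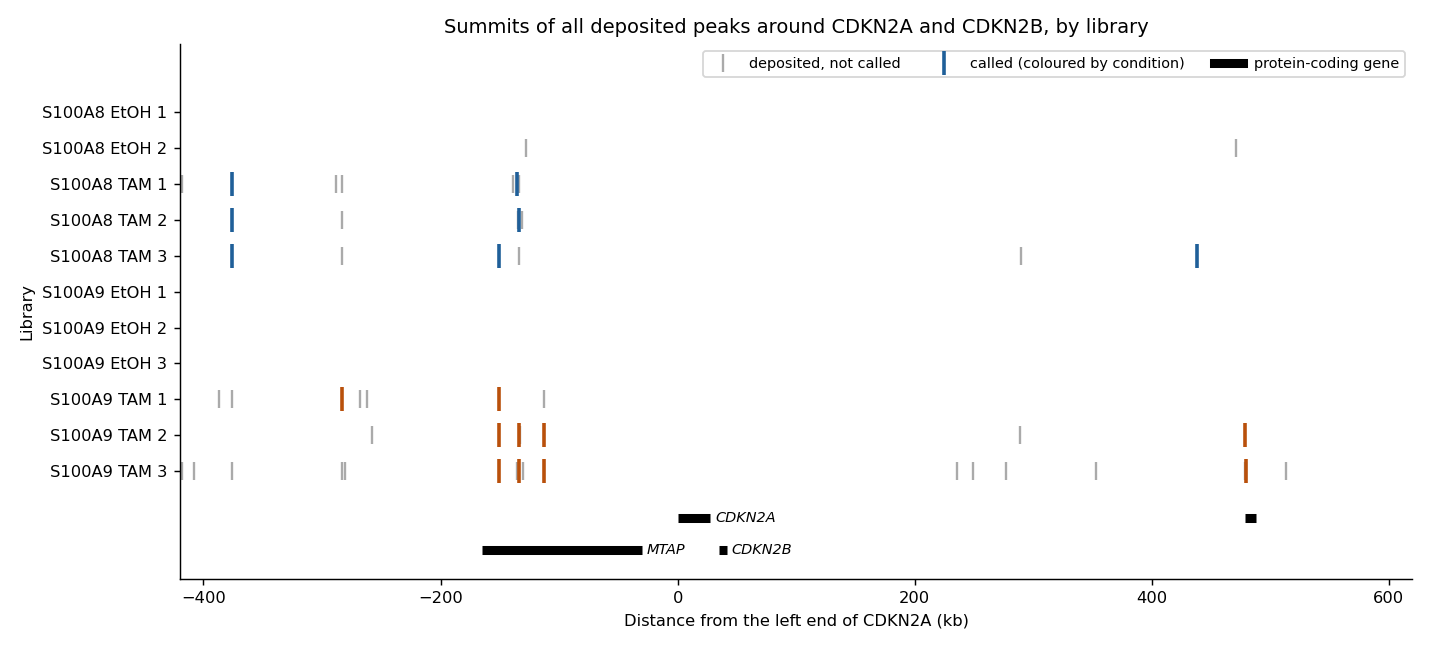
Summits of all deposited peaks around CDKN2A and CDKN2B in each of the 11 libraries (y axis) by distance from the left end of CDKN2A (x axis, kb), gray where not called and colored by condition where called, with protein-coding genes as black bars. No library has a summit in the 348.8 kb from the body of MTAP across CDKN2A and CDKN2B.

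Other features of the stretch were compared with those of the genome. Among stretches that hold no gap of the assembly it was the 27th longest, and 18 of the 26 longer ones also hold a protein-coding TSS. The authors kept only uniquely mapped reads. The share of 31-base words that occur once on the autosomes and chromosome X was therefore counted in 200 places of each stretch. Copies on chromosome Y or in unplaced sequence were not searched. The share was 86.0% here, and 16.8% in the median of the 26 longer stretches. By this count 6 of the 26 were as unique, 5 of them on chromosome X and 1 on chromosome 16. Whether reads from the 5 on chromosome X also match chromosome Y was not tested. In the windows of the 10 genes this share was between 75.5% and 93.0%, with 90.5% at CDKN2A and 89.5% at CDKN2B. The densest 1751-bp promoter window of CDKN2A held 172 CpG and was denser than 95.9% of genes, and that of CDKN2B held 60 and was denser than only 33.1%. Of the 13223 genes with at least 60, 78.6% had a called promoter peak and 89.3% a deposited one in at least 1 library. Peaks were called against the input of the same cells, and a peak list alone cannot tell deleted DNA from DNA that is present and unbound.

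RB1, the retinoblastoma gene (chr13:48877880-49173572, + strand), had 1 and 1 called peaks in S100A8 EtOH, 4, 1, and 4 in S100A8 TAM, 0, 0, and 1 in S100A9 EtOH, and 1, 2, and 3 in S100A9 TAM. The groups shared the value 1, and the difference of 1.83 was not called (adjusted p = 0.0805, exact permutation test) and was −0.550 per 10000 called peaks. Its record in the annotation used here runs on over the neighbor RCBTB2, whose promoter gave 1 of the 6 sites. The promoter site of RB1 at −161 bp was the own-promoter site called in the most libraries of all 10 genes. It was called in S100A8 EtOH replicate 1 and S100A9 EtOH replicate 3, with fold enrichments of 8.03 and 7.66, and in all 6 TAM libraries, with 11.8, 7.29, and 8.23 for S100A8 and 8.46, 12.3, and 7.40 for S100A9. In the other 3 EtOH libraries it was deposited with 7.30 and 4.2 and not called in S100A8 replicate 2 and S100A9 replicate 1, and S100A9 replicate 2 had no deposited peak there.

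E2F1, the transcription factor gene (chr20:32263283-32274191, − strand), had 1 and 0 called peaks in S100A8 EtOH, 3, 2, and 2 in S100A8 TAM, 0, 0, and 2 in S100A9 EtOH, and 1, 4, and 6 in S100A9 TAM. The groups overlapped between 1 and 2 peaks, and the difference was 2.42 (adjusted p = 0.0365, exact permutation test). The difference lay between 1.83 and 3.08 peaks when any 1 library was left out. Without an S100A8 EtOH library no gene at all was called. Of the other libraries, the call held without S100A9 EtOH replicate 3 or S100A9 TAM replicate 1. It was lost without the rest, with adjusted p up to 0.114 in the permutation test and between 44.85% and 51.04% of all genes called. It was also lost with every deposited peak in place of the called ones (adjusted p = 0.0854, permutation test). Per 10000 called peaks the difference was −0.251. Its own promoter was called only in S100A9 TAM replicate 3, at −270 bp with a fold enrichment of 9.82. The sites of this window called in the most libraries were the promoters of ZNF341, a zinc finger gene, and of ACTL10 and NECAB3, each called in 1 EtOH and 5 TAM libraries, followed by a further NECAB3 promoter site called in 1 EtOH and 4 TAM libraries.

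Counted per length of window, with no scaling for the library totals, TAM libraries had 5.44 called peaks per 100 kb at CCND1, 5.23 at CDK4, 3.33 at CCND3, 2.71 at E2F1, 2.34 at CCND2, 1.48 at CCNE1, 1.26 at CDK6, and 0.632 at RB1. In EtOH, CCND1 with 2.28 and CDK4 with 1.92 were also the highest, and the other 6 lay between 0.116 and 0.526. CCND1 and CDK4 were thus first in both treatments, while CCND3 went from the lowest of the 8 in EtOH to the third in TAM.

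Promoters that were called in at least 2 replicates of a condition were counted next. In S100A8 EtOH there were 0 of the 10 genes, where 4.54% of all protein-coding genes passed, and in S100A9 EtOH there was 1, CCND1, where 5.62% passed. In S100A8 TAM there were 5, CCND1, CCND2, CCND3, CDK4, and RB1, where 36.2% passed. In S100A9 TAM there were 6, the same 5 and CDK6, where 42.4% passed. The counts in EtOH and TAM were both near the background of their condition. For CCND1 in S100A8 TAM the called replicates rested on different sites, at +102 bp in replicate 1 and at −452 bp in replicate 3.

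**Figure D5:**
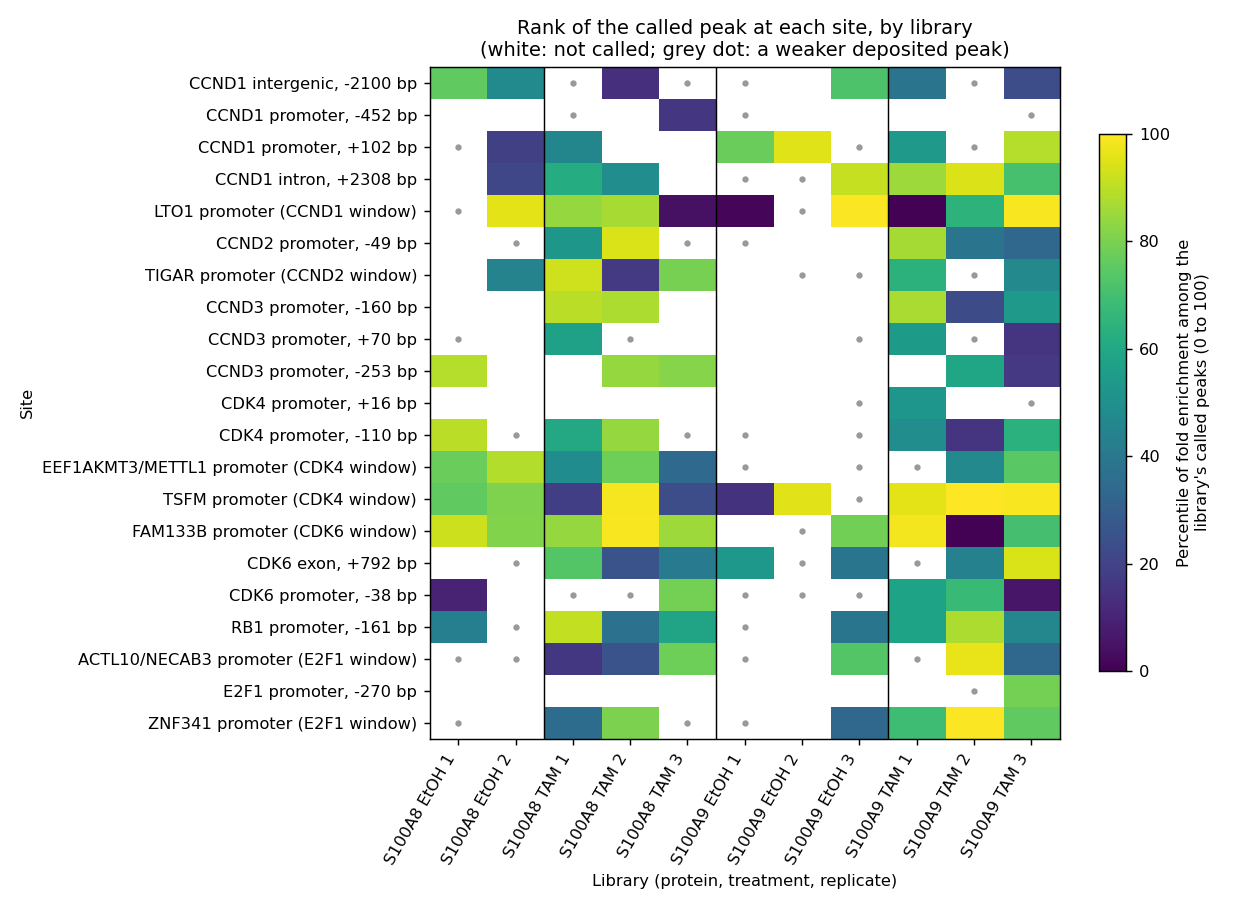
Percentile of fold enrichment within each library's called peaks (color, 0 to 100) at the own-promoter sites of the genes and at the sites called in at least 6 libraries (y axis), for the 11 libraries (x axis). White fields were not called, and gray dots mark weaker deposited peaks. The TSFM row is filled in 10 libraries and the RB1 promoter row in 8, while the E2F1 promoter row is filled in 1.

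Of the 72 merged sites, 11 were at promoters of the genes themselves, 18 at promoters of other genes, 20 in exons or introns of the genes, 10 in bodies of other genes, and 13 between genes. Promoters of other genes held 50% of the 40 called peaks in EtOH and 34.3% of the 201 in TAM, against 20.0% and 18.9% at the genes' own promoters. Sites called only in TAM numbered 48, and 21 of these had a weaker deposited peak in EtOH. Another 22 sites were called in both treatments and 2 only in EtOH. As shares, 66.7% of these sites and 82.0% of all 70990 merged sites were called only in TAM.

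S100A8 and S100A9 shared sites at these genes. In TAM, 40 sites were called for both proteins, 9 only for S100A8, and 21 only for S100A9, whose libraries also had up to 40735 called peaks. At the 40 shared sites the median distance between the summits of the proteins was 30 bp, and it was under 100 bp at 31. Sites were made by merging peaks that overlap, which by itself bounds this distance. Neither this distance nor the share of sites called for both proteins was measured over all merged sites, so the sharing is not shown to be particular to these genes. No gene was called different between the proteins in the exact permutation test, neither among these nor over all 18764 tested, of which 130 had an unadjusted p under 0.05. No adjusted p could have passed, since that takes at least 3753 genes with an unadjusted p under 0.05. Only 20 genes reached the smallest p in that test. The largest difference was at CCND1, with 2.25 more peaks for S100A9 (p = 0.06, exact permutation test).

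Motifs were counted within 100 bp of every summit, as a description. An E2F match was found at none of the 72 sites and at 1.05% of all merged sites, and a CREB match at none and at 0.723%. AP-1 matches lay at 5 of the 72 sites (6.94%), and at the 43 sites away from promoters they lay at 3 (6.98%), against 29.4% of the 55596 such sites of the genome. ETS matches lay at 3 of the 29 promoter sites (10.3%), against 22.1% of 15394 promoter sites and 17.3% of all TSSs, and SP1 matches at 5 (17.2%), against 21.7% and 19.5%. Away from promoters the order was the other way, with ETS at 5 of the 43 sites (11.6%) against 5.57%, and SP1 at 4 (9.30%) against 3.24%. Over all 72 sites ETS lay at 11.1%, against 9.16% of all merged sites, and SP1 at 12.5%, against 7.24%. The CTCF and E-box motifs were added after the sequences had been read. CTCF matches lay at 8 of the 72 sites (11.1%), among them those at TSFM and FAM133B and 2 of the 5 around CCNE1, against 7.64% of all merged sites, 1.51% of TSSs, and 0.804% of windows 1000 bp to either side of the sites. E-boxes lay at 4 sites (5.56%), against 4.78% of all merged sites.

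Other genes of the G1/S transition gave a similar count. Of 20 further genes, which encode cyclins, CDK2, CDK inhibitors, pocket proteins, E2F and DP factors, CDC25A, SKP2, and CKS1B, all had a called peak, 15 were called higher in TAM and none lower, with 65.3% of all genes tested called higher, and the median difference was 2.25 peaks. Every TAM library lay above every EtOH library at 10 of the 20, against 38.8% of all genes tested and CCND3 alone of the 10 genes above. None of the 20 was called per 10000 called peaks, where 8 were higher and 12 lower. Over all genes tested, 10436 were higher and 8328 lower on that scale. Without S100A8 EtOH replicate 1 or replicate 2 no gene at all was called, these 20 included. Their promoters were called in at least 2 replicates in 0 genes in S100A8 EtOH (4.54% of all genes), 12 in S100A8 TAM (36.2%), 2 in S100A9 EtOH (5.62%), and 13 in S100A9 TAM (42.4%). The promoters called in the most libraries were those of CDKN2C, the gene of the CDK4 and CDK6 inhibitor p18, in 9 libraries, and of E2F6, a repressor of the E2F family, and CDKN1A, the gene of the CDK inhibitor p21, in 8 each. CDKN1A went from between 0 and 2 called peaks in EtOH to between 5 and 7 in TAM (adjusted p = 0.0226, exact permutation test), and CDKN2C from between 0 and 2 to between 2 and 4 (adjusted p = 0.0365, exact permutation test). Per 10000 called peaks the differences were −0.0930 at CDKN1A and −1.27 at CDKN2C. E2F6 had 0 or 1 in EtOH and between 1 and 3 in TAM and was not called (adjusted p = 0.144, exact permutation test). Genes on other chromosomes whose numbers of called peaks over the 11 libraries were among the most like those of CCND3 were HTT, the huntingtin gene, at a Euclidean distance of 2.0, and GADD45GIP1, at 2.45.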

How the data were processed

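Reads of each ChIP library were aligned by the authors to hg19 with Bowtie2, uniquely mapped reads were kept, and narrow peaks were called per library with MACS2 against the input of the same sample, without pooling. Versions are not given in the sources used here. In the deposited lists the fold enrichment is a ratio of ChIP to input at the summit, the q value of a peak is deposited as −log10 q, and a further deposited column is a score made from it that was not used. The lists reach q = 0.05. Input and Pol II libraries, 13 of the 24 samples, were not analysed here. The raw-read filter of the study could not be applied.

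Peaks with −log10 q of at least 7 were used. Genes and TSSs were those of GENCODE 44 lifted to GRCh37. Called peaks were merged over libraries where they overlapped by at least 1 bp. Treatments were compared by exact permutation within each protein (200 arrangements, two-sided by doubling the smaller tail, smallest p 0.01), and proteins within each treatment, with Benjamini-Hochberg adjustment over all genes with a called peak and a threshold of 0.05. The count test of the study needs reads and was not run. The test was checked on simulated counts. Scripts used Python 3.11.15, numpy 2.4.6, pandas 2.3.3, and matplotlib 3.10.9.

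The genes and lists were chosen with earlier results of these data known. Named were all 10 genes, of the other G1/S genes the 3 called at their promoter in the most libraries, neighbors whose promoter site was called in at least 6 libraries, the genes of the stretch on chromosome 9, and the 3 genes most like the one with the most peaks in TAM, of which 1 is not reported here, nor is 1 promoter sequence. MED20, BYSL, USP49, TAF8, and RCBTB2 were named after their values were seen. Alternatives were the peak threshold, equal numbers of peaks, window, promoter and TSS definitions, overlap in place of summits, numbers per 10000 peaks, replicates needed, each library left out, and the replicate number as a block. Replicate numbers were not treated as pairs, because the deviations of same-numbered EtOH and TAM libraries correlated between −0.0459 and 0.118 over 5 pairs.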

Additional observations from a re-analysis of the deposited data

How the results depend on the processing

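Of the alternatives run, direction turned only where libraries were set to equal numbers of peaks or scaled by their number. With the 1853 peaks of lowest q value in each library, 0 of the 10 genes and 0 of the 20 other G1/S genes were called in the permutation test, the mean difference over the windows was −2 peaks, 17 merged sites remained, 0 promoters passed in S100A8 TAM and 0 in S100A9 TAM, and CCND1 (−0.833), CCND3 (−0.0833), CCNE1 (−0.167), CDK4 (−0.917), and CDK6 (−0.333) turned negative. Per 10000 called peaks, 0 and 0 genes were called, and CCND1 (−5.22), CCND2 (−0.118), CDK4 (−3.30), CDK6 (−1.70), RB1 (−0.550), and E2F1 (−0.251) turned negative. In these settings no gene at all was called, of 12750 tested with equal numbers of peaks and of 18764 tested per 10000 called peaks. Library totals moved with these changes, and their part was not tested.

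With q of at most 1e-10, 3 of the genes and 8 of the others were called and the mean difference was 16.3 peaks. With every deposited peak the difference was 50.8 peaks, 269 sites were found, and promoters passed at 4 genes in S100A8 EtOH and 5 in S100A9 EtOH. With 10 kb around the gene body, 1 and 5 genes were called, with 21.5% of all genes tested called. The difference was then 15.1, and 44 sites were found. With the gene body alone, 0 and 0 genes were called, although 3 of the 10 had an unadjusted p under 0.05, the difference was 10.3, and 31 sites were found. Over all genes, 3984 then had an unadjusted permutation p under 0.05 and none an adjusted one.

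With the 5′ end of the gene record as the only TSS, 2 promoters passed in S100A8 TAM and 3 in S100A9 TAM. From 1000 bp upstream to 1000 bp downstream, 2 passed in S100A9 EtOH. With at least 1 replicate, 5 passed in S100A8 EtOH and 2 in S100A9 EtOH, and with every replicate 2 in S100A8 TAM and 0 in S100A9 EtOH. The stretch at CDKN2A measured 598.5 kb with EtOH libraries only, 551.4 kb with q of at most 1e-07, 1915 kb with q of at most 1e-10, and 6270 kb with equal numbers of peaks.

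With the replicate number as a block, 0 of the genes and 0 of the others were called, and no gene could be, as the smallest p of its 32 arrangements is 0.0625. Leaving out each library in turn gave 0 to 5 called genes, 0 to 15 of the others, a difference of 22.8 to 26.5 peaks, 65 to 72 sites, 0 to 0, 2 to 4, 0 to 1, and 5 to 6 promoters in S100A8 EtOH, S100A8 TAM, S100A9 EtOH, and S100A9 TAM, and a stretch of 348.8 to 402.2 kb. The 0 called genes and 0 of the others came from leaving out an S100A8 EtOH library, where no gene at all was called. Without any other library, between 44.85% and 51.04% of all genes tested were called. No gene was called between the proteins under any alternative run. Overlap in place of summits left the count of called genes at 6 of the 10 and 15 of the 20. Depth is not given, so a peak that was not called was not detectable in that list and is not shown to be absent.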
